A study of Mus musculus with 13 samples.

Results

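The LIM homeobox genes Lhx1, Lhx2, Lhx3, Lhx4, Lhx5, Lhx6 and Lhx9 were examined through the H3K27me3 peaks called at 7 windows of the mouse genome. The windows are named for the genes, in mm9 coordinates, and the Lhx5 window also takes in its neighbours. Their match to the genes was not checked, because no mm9 annotation was used. Every peak of either of 2 deposited lists that overlapped a window was a member. This gave 22 peaks of the 2245 in both lists: 13 of the 1053 in the H3.1K27M list and 9 of the 1192 in the H3.3K27M list. The windows were 60 kb (Lhx3) to 500 kb (Lhx5) long and were chosen by peak positions, number and width in these same lists. The presence of peaks in them is therefore no finding, and all values for them are descriptions without a test.

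Both lists come from chromatin immunoprecipitation and sequencing of H3K27me3 in mouse embryonic fibroblasts. The cells had been transduced with lentivirus to express stably a histone H3 whose lysine 27 was replaced by methionine, either in H3.1, the form deposited mainly during DNA replication, or in H3.3, deposited throughout the cell cycle. Each group had 2 replicate samples with 1 peak list, so no spread between replicates could be given. A control list without the mutant was not analysed here. The lists hold positions and widths, with no peak height and no expression value, so the labelled cell type could not be checked against markers.

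LIM homeobox proteins are transcription factors that carry a pair of LIM domains, which bind cofactors such as LDB1, and a homeodomain, which binds DNA. They act in combinations to set cell identity in the embryo, above all in neurons, the pituitary, the eye, the limb and the gonad. H3K27me3 is placed by Polycomb repressive complex 2 (PRC2) through its catalytic subunit EZH2, and genes of developmental transcription factors of this kind are typical carriers of the mark in cells that do not use them. In many cases the mark lies around CpG-rich start sites.

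The reference promoters of 4 of these genes, shown because they span the range of peak patterns found, differ in their number of CpG dinucleotides, printed in capitals. Lhx1 and Lhx4 stand for windows with a broad peak in both lists, Lhx6 for the window with a peak in the H3.3K27M list alone, and Lhx9 for the window with none. Each is the 250 bases before the annotated start site, 5′ to 3′, from RefSeq on GRCm38.p6, all on the minus strand. For Lhx6 it is the first of 3 listed start sites. The positions are chr11:84525535-84525784 (Lhx1), chr1:155742028-155742277 (Lhx4), chr2:36105409-36105658 (Lhx6) and chr1:138842445-138842694 (Lhx9). These are GRCm38.p6 positions and cannot be laid over the mm9 peak positions given elsewhere.
Lhx1: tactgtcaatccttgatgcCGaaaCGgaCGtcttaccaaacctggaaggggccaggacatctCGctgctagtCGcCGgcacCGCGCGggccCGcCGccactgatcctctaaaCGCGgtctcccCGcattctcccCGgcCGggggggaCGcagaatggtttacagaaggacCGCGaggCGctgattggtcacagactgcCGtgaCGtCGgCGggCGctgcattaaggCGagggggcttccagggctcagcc
Lhx4: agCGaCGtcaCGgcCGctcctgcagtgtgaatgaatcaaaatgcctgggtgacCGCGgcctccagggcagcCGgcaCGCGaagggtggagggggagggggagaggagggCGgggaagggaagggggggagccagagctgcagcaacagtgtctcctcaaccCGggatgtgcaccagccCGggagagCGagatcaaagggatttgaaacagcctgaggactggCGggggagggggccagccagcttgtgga
Lhx6: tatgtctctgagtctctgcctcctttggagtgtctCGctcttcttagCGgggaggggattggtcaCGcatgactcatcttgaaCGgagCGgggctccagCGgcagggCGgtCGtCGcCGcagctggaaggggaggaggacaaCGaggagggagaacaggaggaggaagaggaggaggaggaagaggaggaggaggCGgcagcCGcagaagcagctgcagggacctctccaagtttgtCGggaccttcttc
Lhx9: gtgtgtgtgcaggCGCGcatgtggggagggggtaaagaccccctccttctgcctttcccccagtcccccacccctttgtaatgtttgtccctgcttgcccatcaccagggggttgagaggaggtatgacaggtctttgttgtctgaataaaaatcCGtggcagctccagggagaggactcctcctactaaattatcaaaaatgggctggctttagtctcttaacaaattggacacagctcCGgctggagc

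The Lhx1 promoter held 26 CpG dinucleotides and the Lhx9 promoter 4, with 14 each for Lhx4 and for the first start site of Lhx6. Over all 32851 promoter entries the median was 6 (quartiles 2 and 16). Lhx2, a regulator of forebrain, eye and hair follicle development, had 25 and 24 at its pair of listed start sites. Lhx3, a pituitary and motor neuron factor, had 11 and 22, and the other start sites of Lhx6 had 17 and 7. The number in the Lhx1 promoter was reached or passed by 9.59% of all entries, and that in the Lhx9 promoter by 62.2%. Lhx9 thus had the fewest among the 6 member genes with a promoter entry. The order did not follow the peaks throughout, since Lhx6 equalled or passed Lhx4 at its first and second start sites. The first start site of Lhx3 had fewer than either of these. A link between CpG number and peaks was not tested. Lhx5 was not in the table. The ratio of observed to expected CpG, which corrects for base composition, was 0.991 for Lhx1, 0.564 for Lhx4, 0.643 for the first start site of Lhx6 and 0.223 for Lhx9, against a median of 0.374 over all entries. The 5 other LIM homeobox genes, Lhx8, Isl1, Isl2, Lmx1a and Lmx1b, ranged from 4 (Lhx8) to 33 (Isl1). Their H3K27me3 was not analysed here, because no mm9 annotation was used.

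**Figure D1:**
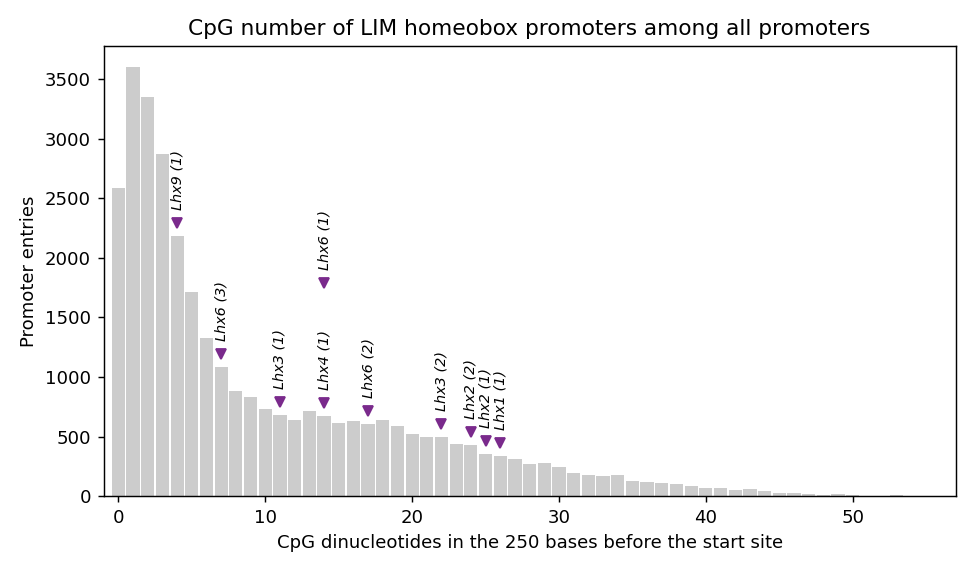
Number of promoter entries (vertical axis) by the number of CpG dinucleotides in the 250 bases before the start site (horizontal axis). Triangles mark the 10 start sites of the 6 member genes found in the table, with the number of the start site in brackets. Lhx9, with 4, lies farthest to the left of the members and Lhx1, with 26, farthest to the right.

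The windows of Lhx1, Lhx2, Lhx3 and Lhx4 each held 1 broad peak per list, and in all 4 the peaks of the lists overlapped. The Lhx5 window held 9 H3.1K27M and 4 H3.3K27M peaks. The Lhx6 window held a single H3.3K27M peak, and the Lhx9 window held no peak. Summed over the windows, 132.4 kb were covered in both lists, a further 35.8 kb in the H3.1K27M list alone and 25.2 kb in the H3.3K27M list alone. The ratio of the whole H3.3K27M length to the whole H3.1K27M length was 0.937. Over the whole lists the same ratio was 1.36. Over these windows together the H3.3K27M list covered slightly less than the H3.1K27M list, and over the genome it covered more. The windows differed: the ratio was 0.733 at Lhx2, 0.824 at Lhx5, 0.966 at Lhx4, 0.9895 at Lhx3 and 1.303 at Lhx1. Lhx6 had an H3.3K27M peak alone. Without the Lhx5 window the ratio was 0.996. A sum over peaks also depends on the depth and calling threshold of each list, both unknown, and their part in these ratios was not tested.

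Lhx1 and Lhx5 form one pair of close relatives in the family, and both had a wider main peak in the H3.3K27M list. The H3.3K27M peak was the wider one in 77.7% of all regions with 1 peak of each list, so this is not particular to the pair. Lhx1 is required in the embryo for head formation and kidney development. Its H3.1K27M peak ran from 84328001 to 84347799 on chromosome 11 (19.8 kb), and its H3.3K27M peak from 84327401 to 84353199 (25.8 kb). The H3.1K27M peak lay wholly inside the other. The H3.3K27M peak reached 0.6 kb further on the side of lower coordinates and 5.4 kb further on the other, so the difference was nearly all at one edge. The log2 width ratio of H3.3K27M to H3.1K27M was 0.38, close to the median of 0.33 over the 807 regions of the genome with exactly 1 peak of each list.

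At Lhx5, which acts in forebrain and hippocampal development, the widest peaks ran from 120873001 to 120890999 on chromosome 5 in the H3.1K27M list (18 kb) and from 120867201 to 120896999 in the H3.3K27M list (29.8 kb). Here the H3.3K27M peak reached further at both edges, by 5.8 and 6 kb. The log2 width ratio was 0.73, a 1.66-fold difference and the highest of the members, and 78.2% of the 807 regions had a lower one. An H3.3K27M peak that reached at least 5.8 kb further at both edges was found in 4 of the 807 regions (0.496%), Lhx5 included. The limit was the difference at Lhx5 itself, so this share is a description only. The median H3.3K27M width over the 807 regions was 8.2 kb, so most of these peaks were too narrow to reach it at both edges. Among the 95 regions with a geometric mean of both widths of at least 18.9 kb, 4 had a higher ratio.

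The pair Lhx3 and Lhx4 had peaks of nearly the same width in both lists. Both proteins are needed for the anterior pituitary and for motor neurons. The Lhx3 peak ran from 26045001 on chromosome 2 in the H3.1K27M list and from 26045201 in the H3.3K27M list, and both ended at 26063999. The widths were 19 and 18.8 kb and differed by 0.2 kb, the step on which peak starts are placed in these lists. Both edges agreed within 200 bp in 49 of the 807 regions (6.07%), Lhx3 included. The Lhx4 peaks were 35.4 kb (157566601 to 157601999 on chromosome 1) and 34.2 kb (157568201 to 157602399), with log2 width ratio -0.05. Their edges differed by 1.6 and 0.4 kb, so 95.5% of the H3.1K27M peak and 98.8% of the H3.3K27M peak lay inside the other. Against the 807 regions these are low ratios: 17.8% of regions lay below that of Lhx4 and 19.3% below that of Lhx3.

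Lhx2 and Lhx9 are relatives of the fly gene apterous. The Lhx2 peak was wider in the H3.1K27M list, with 36 kb (38190801 to 38226799 on chromosome 2) against 26.4 kb (38190601 to 38216999). On the side of lower coordinates the edges lay 0.2 kb apart. On the other side the H3.1K27M peak reached 9.8 kb further, and 72.8% of it lay inside the H3.3K27M peak. An H3.1K27M peak that reached at least as far beyond its partner at an edge was found in 5 of the 807 regions (0.62%), Lhx2 included. The limit was the difference at Lhx2 itself, so this share is a description only. The median H3.1K27M width over the 807 regions was 6.2 kb, so most of these peaks were too narrow to reach it. At least 1 edge agreed within 200 bp at Lhx2 and Lhx3, 2 of the 8 member regions with 1 peak of each list, against 31.4% of all 807. Both are broad. Counted among the 5 widest regions of the windows they make 40%, against 18.95% of the 95 regions of at least 18.9 kb. The direction thus depends on the set compared. The log2 width ratio at Lhx2 was -0.45, and 6.82% of regions had a lower one. At Lhx9, which acts in gonad and limb development, neither list had a peak between positions 140700000 and 140800000 of chromosome 1. The nearest peaks lay 1841 kb (H3.3K27M) and 1843 kb (H3.1K27M) beyond the edge of the window. With the depth unknown, this says that no peak was called there and not that the mark was missing.

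Lhx6, a factor of cortical interneurons, had 1 peak of 4.6 kb in the H3.3K27M list, from 35958201 to 35962799 on chromosome 2. The H3.1K27M list had none within 2228 kb of it. With 76.7% of the H3.3K27M list as wide or wider, it was the narrowest main peak among the member genes with a peak. Peaks called in the H3.3K27M list alone were common, at 354 of 1192 (29.7%), so a single such peak among the 9 members is not a result about the family.

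**Figure D2:**
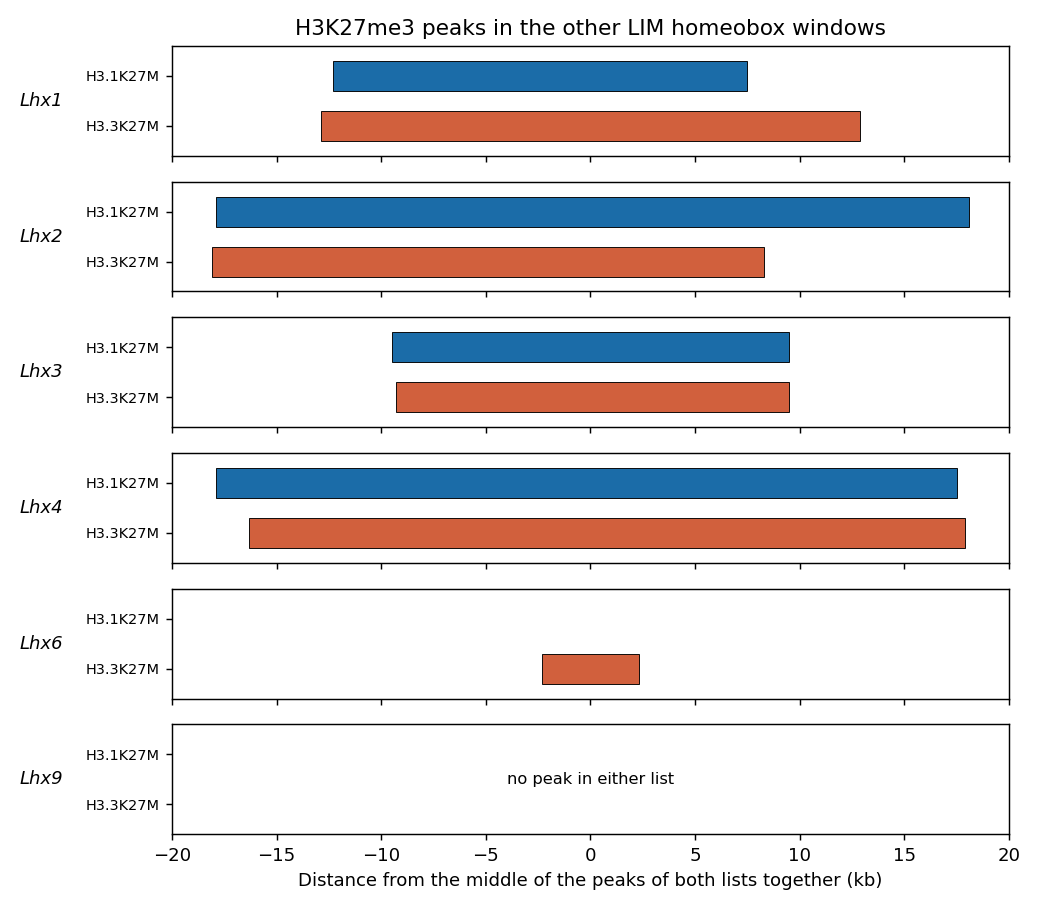
H3K27me3 peaks in 6 windows, drawn to scale as bars, with the H3.1K27M list above the H3.3K27M list in each panel. The horizontal axis is the distance in kb from the middle of the peaks of both lists together. Lhx3 and Lhx4 show near-equal bars, Lhx2 a 9.8 kb extension of the H3.1K27M bar at one edge, Lhx1 a 5.4 kb extension of the H3.3K27M bar, and Lhx9 none.

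The main peaks of Lhx1 to Lhx5 stood high in the width order of both lists. In the H3.1K27M list the Lhx2 peak ranked 15 and the Lhx4 peak 16 of 1053, Lhx1 ranked 89, Lhx3 97 and Lhx5 110. In the H3.3K27M list the ranks of 1192 were 36 for Lhx4, 57 for Lhx5, 74 for Lhx2, 78 for Lhx1 and 145 for Lhx3. Peaks of 18 kb or more made up 5 of the 13 H3.1K27M members (10.7% of that list) and 5 of the 9 H3.3K27M members (12.8% of that list). The windows were chosen partly by peak width, and 18 kb is also the width of the narrowest H3.1K27M main peak. These ranks and shares therefore describe that choice and are no finding. Lhx5 stood last of the 5 in one list and second in the other. The peaks were longer than the gene models of Lhx1 (7.56 kb), Lhx3 (8.04 kb) and Lhx5 (9.57 kb, lengths from RefSeq on GRCm38.p6), by 1.88 to 3.41 times. At the long gene Lhx4 (53.7 kb) they had 0.659 and 0.637 of the gene's length. At Lhx2 (30.47 kb) the H3.1K27M peak had 1.181 and the H3.3K27M peak 0.866 of it. The single H3.3K27M peak at Lhx6 (24.04 kb) had 0.191. How the peaks lie over the genes was not determined, since peaks and gene models are on different builds.

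Of the 8 member regions with 1 peak of each list, the H3.1K27M peak was the wider one in 5 and the H3.3K27M peak in 3. Over all 807 regions the H3.1K27M peak was wider in 19.5% and the H3.3K27M peak in 77.7%. The median log2 ratio was -0.03 in the member regions and 0.33 over all (quartiles 0.05 and 0.66). In the Lhx5 window alone lie 4 of the 8 regions, with each list wider in 2, so the 8 are not independent. The windows were also chosen by peak number and width in these same lists, so these counts and medians are descriptions only. The median ratio was lower in broad regions, so the 5 main regions were also set beside the 95 regions at least as wide as the narrowest of them, 18.9 kb by the geometric mean of both widths. In these 95 the median was 0.20 and the H3.1K27M peak was wider in 14 (14.7%). Lhx2, Lhx3 and Lhx4 were 3 of those 14. Lhx1 and Lhx5 went with the direction of most of the genome. The margins at Lhx3 and Lhx4 were 0.2 and 1.2 kb, so among the main regions Lhx2 alone was clearly wider in the H3.1K27M list.

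**Figure D3:**
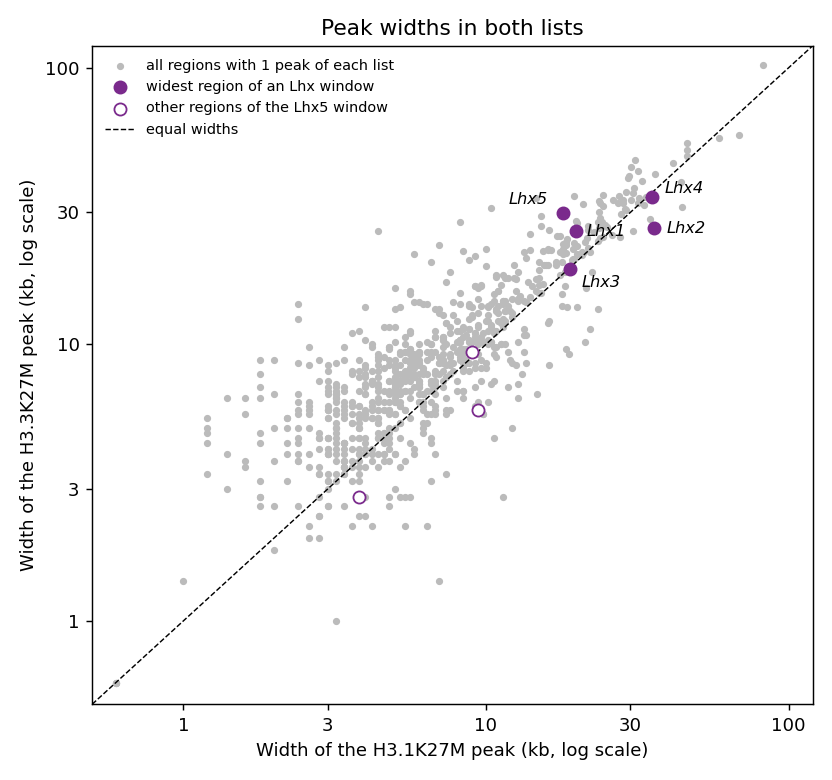
Width of the H3.1K27M peak (horizontal axis, kb, log scale) and of the H3.3K27M peak (vertical axis, kb, log scale) in each of 807 regions with 1 peak of each list. Filled points are the widest region of each of 5 Lhx windows and open points the other 3 regions of the Lhx5 window. Most of the genome lies above the dashed line of equal widths, Lhx1 and Lhx5 lie above it, Lhx3 and Lhx4 on or close to it, and Lhx2 below it.

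The Lhx5 window was chosen for the number of peaks called in it, so its place among other stretches describes that choice and is no finding. In the gene order of GRCm38, Lhx5 follows Tbx3, Tbx5 and Rbm19, of which the first pair are T-box factors of limb and heart. It is followed by Sdsl, Sds, Plbd2, Slc8b1, Tpcn1, Iqcd, Rita1 and Ddx54. Which of these genes each peak lies at was not determined. Over 436.8 kb there were 13 peaks of both lists. Among non-overlapping stretches of up to 500 kb that start at a peak, 817 in all with a median of 2 peaks, this was rank 2, a place shared with 1 other stretch. By H3.1K27M peaks alone, 9, it was first of 631. By H3.3K27M peaks alone it was one of 7 stretches with 5 peaks, at rank 6, counting 1 peak that lies 83.2 kb outside the window.

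On the side of lower coordinates 4 H3.1K27M peaks stood with no H3.3K27M peak. The first measured 3.8 kb (120728601 to 120732399) and the second 4.2 kb (120750001 to 120754199). The third measured 1.8 kb (120771801 to 120773599) and the fourth 7 kb (120844601 to 120851599). Together they spanned 123 kb. The first 3 lay 84.2 to 125.4 kb from the nearest H3.3K27M peak and the fourth 6.2 kb from it. Such a run of 4 neighbouring H3.1K27M peaks without an H3.3K27M peak occurred at 2 places in the genome, and none was longer. The other run, on chromosome 6, was spread over 850.8 kb. Shorter runs numbered 6 with 3 peaks, 25 with 2 and 122 with 1. Since the Lhx5 window was chosen for its number of peaks, the length of its run is a description and no finding. No running number was skipped in either list at any of the 7 windows. Whether the numbers were given before or after any filtering is unknown, so this cannot show whether peaks were removed.

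Next came a small region where both lists had a peak, 3.8 kb from 120858801 in the H3.1K27M list and 2.8 kb from 120857801 in the H3.3K27M list, with log2 width ratio -0.44. The main Lhx5 peaks followed after gaps of 10.4 and 6.6 kb. Beyond them lay 207.8 kb without an H3.1K27M peak, ended by a 1 kb peak from 121098801 to 121099799 that ranked 1043 of 1053 in width and had no H3.3K27M peak within 42 kb. In the H3.3K27M list the empty part measured 244.8 kb.

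At the far end both lists had a pair of peaks. The first of the pair was wider in the H3.1K27M list, 9.4 kb (121140601 to 121149999) against 5.8 kb (121141801 to 121147599), with log2 width ratio -0.70, the lowest of the members. The second measured 9 kb (121155201 to 121164199) in the H3.1K27M list and 9.4 kb (121156001 to 121165399) in the H3.3K27M list, with log2 width ratio 0.06. Within the stretch the lists thus differed in both directions: the H3.3K27M peak was wider at the main Lhx5 region, and H3.1K27M peaks were more numerous to the side of it.

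**Figure D4:**
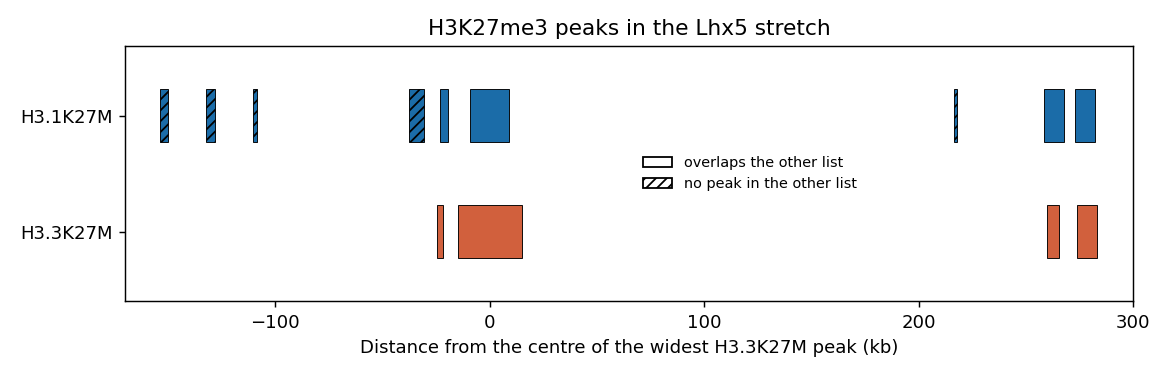
H3K27me3 peaks of the Lhx5 stretch, drawn to scale, with the H3.1K27M list above the H3.3K27M list. The horizontal axis is the distance in kb from the centre of the widest H3.3K27M peak, and hatched bars have no peak of the other list. All 5 hatched bars are H3.1K27M peaks, 4 of them to the left of the main peak.

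All 4 H3.3K27M peaks of the Lhx5 window overlapped an H3.1K27M peak, while 5 of the 9 H3.1K27M peaks had no partner. Over the whole list 18.8% of H3.1K27M peaks had none. Over all 7 windows 8 of 13 H3.1K27M peaks had a partner (61.5%), against 81.2% of the list, and 8 of 9 H3.3K27M peaks did, against 70.3%. No interval is given, since 9 of the 13 lie in 1 chosen window and are not independent. The 5 peaks without a partner were narrow, with a median of 3.8 kb and 17.8 kb in all. The median of all H3.1K27M peaks without a partner was 3.2 kb. Of the length covered in the window, 46.9% of that in either list was common to both, against 98.9% at Lhx3, 94.4% at Lhx4, 76.7% at Lhx1, 72.4% at Lhx2, 0% at Lhx6 and 56.3% over the whole lists.

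Of the 13 peaks of the Lhx5 stretch 69.2% were H3.1K27M peaks. In the other 8 stretches with at least 10 peaks this share ran from 37.5 to 58.3%, with a median of 51.9% and at most 7 H3.1K27M peaks. The Lhx5 stretch was chosen for its number of peaks in these same lists, to which the H3.1K27M peaks gave most. Its share therefore describes that choice and is no finding.

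Outside the windows, the nearest peaks were partly shared as well. Beyond the Lhx1 window both lists had a peak at 69 to 72.8 kb from its edge, 9.8 kb wide in the H3.1K27M list and 5.6 kb in the H3.3K27M list. Before the Lhx5 window both lists had a broad peak, 14 kb and 14.8 kb wide, at 442.4 and 441 kb from the edge. After it, the H3.3K27M list had a peak of 3.2 kb at 83.2 kb, where the H3.1K27M list had none up to 1171 kb. For Lhx2, Lhx3 and Lhx4 the nearest peak of either list lay at least 295.6 kb outside the window.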

How the data were processed

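The labels describe 13 samples in 11 groups. Peak lists were analysed for H3K27me3 in H3.1K27M and in H3.3K27M cells. The label of the second replicate names the same list as the first, and pooling is not stated. The submitters' processing notes name Bowtie 1.0.0, deepTools and the build mm9. The sources used here do not give the peak caller, threshold, input correction or read depth. Each deposited list gives position, width in bp and a running name, with starts on a 200 bp grid. Printed positions count the first base as 1.

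Peaks with at least 1 bp in common were partners, and peaks linked by overlaps formed a region. Alternatives covered a reciprocal overlap of 50%, merging of peaks under 5 kb apart, peaks wholly inside a window or of at least 2 kb, windows cut or widened by 50 kb, and the list used for crowding. Members, windows and lists were chosen with earlier results of these data known. All 7 member genes and all peaks of their windows are named. The overlap and crowding steps were tested on simulated data. The gene and promoter tables describe GRCm38.p6 and were used for gene order, lengths and sequence. Python 3.11.15, numpy 2.4.6, pandas 2.3.3, scipy 1.17.1, networkx 3.6.1 and matplotlib 3.10.9 were used.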

Additional observations from a re-analysis of the deposited data

How the results depend on the processing

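No paired analysis was possible because there was 1 peak list for both replicates of a group. Leaving out a replicate was not possible either. Peak numbers per list, 13 and 9, became 11 and 9 with peaks of at least 2 kb and did not change under the other settings tried. The ratio of covered lengths stayed at 0.937 with peaks cut at the window edges, merged, or windows widened, and was 0.996 without the Lhx5 window. The shares with a partner were 53.8% (H3.1K27M) and 77.8% (H3.3K27M) with a reciprocal overlap of 50%. Without the Lhx5 window, a setting added after seeing the data, all 4 H3.1K27M peaks had a partner (100%). Of the 5 H3.3K27M peaks left, 4 had one (80%). The shares over the whole lists were 81.2% (H3.1K27M) and 70.3% (H3.3K27M). The rank of the Lhx5 stretch went from 2 to 1 with H3.1K27M peaks alone, to 6 with H3.3K27M peaks alone and to 1 with peaks under 5 kb apart merged. The comparison with the 95 broad regions was also added after seeing the data, as was the use of the Lhx1 to Lhx4 windows alone, which left the median log2 width ratio at -0.03. Library depth is unknown, which limits what can be said of peaks that were not called.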
